A study of Mus musculus with 12 samples.

Results

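The genes of the NF-kB transcription factors and of their IkB inhibitors were measured in mouse bone marrow-derived macrophages that carried, or did not carry, floxed Klf6. The members are 10 genes chosen by name: the subunit genes Nfkb1, Nfkb2, Rela, Rel and Relb, and the inhibitor genes Nfkbia, Nfkbib, Nfkbie, Nfkbiz and Bcl3. All 10 were found by symbol among the 22896 genes listed for untreated cells and the 21437 listed for TNF-treated cells, and all 10 passed the filter on low values in both. Cells came from Klf6fl/fl:Lyz2cre mice, in which Cre driven from the myeloid gene Lyz2 acts on 2 floxed copies of Klf6, or from Lyz2cre mice, which carry the Cre allele alone. Each genotype was sequenced without TNF and after 6 h with TNF at 10 ng/ml, with 3 libraries in each of the 4 groups. Which exons of Klf6 are floxed, the strain, the age of the mice and the source of each library are not given, so the 3 libraries of a group may be technical repeats and the p-values measure only the spread between them. Values are normalized counts (reads divided by 1 size factor per library) unless CPM is named, which scales each library to its own total of reads.

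NF-kB proteins bind DNA as dimers of 5 related subunits. In resting macrophages most dimers are held in the cytoplasm by IkB proteins, and TNF activates the IkB kinase complex, which marks IkB for destruction and lets the dimers of RelA with p50 enter the nucleus. Several subunit and inhibitor genes are themselves NF-kB targets, so the response is fed both forward and back, and a slower branch through the kinase NIK trims the Nfkb2 product p100 to p52, the partner of RelB.

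Stretches of promoter are shown for the members, Bcl3 aside, whose start sites RefSeq promoters cover. Some hold the kB motif, the DNA element bound by NF-kB, and some do not. Whether a match goes with the levels below was not tested. RefSeq promoter windows (GRCm38.p6) of 250 bases before to 50 after a start site were found for 7 of the 10 members, in 9 windows, and Nfkb1, Relb and Nfkbiz had none. The kB decamer consensus was matched on either strand in 7 of the 9 windows, against 8.46% of the 32851 windows of all genes. Those 7 were the 3 windows of Nfkb2 and 1 each of Rel, Nfkbia, Nfkbie and Bcl3, and the windows of Rela and Nfkbib held no match. The Nfkb2 windows with start sites at 46305695 and 46305930 overlap and share a match, so the same site counts in both. The letters below run from 5′ to 3′ on the strand of the gene, with kB matches in capitals, and end at the base before the start site for Rel, Nfkbia, Nfkbib and Nfkbie, 11 bases before it for Nfkb2 and 59 bases before it for Rela.
Nfkb2, chr19:46304697-46304726, plus strand: cGGGAATTCCCCccctcggggggccgaaaG
Rel, chr11:23770970-23771089, minus strand: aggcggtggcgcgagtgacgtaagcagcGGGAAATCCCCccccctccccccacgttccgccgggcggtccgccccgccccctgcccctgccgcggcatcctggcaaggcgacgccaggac
Nfkbia, chr12:55492648-55492767, minus strand: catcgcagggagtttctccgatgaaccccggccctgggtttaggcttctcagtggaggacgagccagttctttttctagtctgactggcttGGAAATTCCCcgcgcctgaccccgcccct
Nfkbie, chr17:45555580-45555699, plus strand: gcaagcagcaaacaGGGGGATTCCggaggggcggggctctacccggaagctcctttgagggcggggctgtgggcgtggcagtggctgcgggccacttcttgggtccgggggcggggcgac
Rela, chr19:5637363-5637482, plus strand: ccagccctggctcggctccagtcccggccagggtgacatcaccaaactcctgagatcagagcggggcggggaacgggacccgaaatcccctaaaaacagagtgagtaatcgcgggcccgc
Nfkbib, chr7:28766645-28766734, minus strand: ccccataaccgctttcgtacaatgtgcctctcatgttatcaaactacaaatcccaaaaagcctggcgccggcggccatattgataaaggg

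The capitals in Nfkb2 and Rel cover overlapping matches on both strands, and the last capital G of the Nfkb2 stretch opens another match that runs on beyond it. In Bcl3 the match begins 2 bases after the start site, where no sequence is shown. The AP-1 motif TGANTCA, searched on both strands, was found in 1 window of Nfkb2 and in that of Nfkbie, against 7.81% of all windows. The interferon response core, GAAA then any 2 bases then GAAA on either strand, was in none of the 9 windows, against 3.44% of all windows. The GC box GGGCGG, on either strand, was in every window but the first of Nfkb2 and that of Nfkbib, against 35.7% of all windows. A match describes these letters and shows no binding.

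The libraries held 16.9 to 23.4 M reads, and the lowest count of a member in a library was 404 reads. Klf6 had 7004, 7405 and 6894 normalized counts in untreated Klf6fl/fl:Lyz2cre libraries, against 10055, 9984 and 10314 in untreated Lyz2cre libraries, and with TNF 4211, 4133 and 4139.9 against 7622, 7155 and 7564. These are gene-level values that may also count exons outside the floxed part, so they do not measure how far Klf6 was deleted. Lyz2 was lower too, by 1.82 on the log2 scale without TNF and by 0.84 with it, and it can share reads with its near-identical neighbour Lyz1. Summed levels of 16 macrophage markers, all of them listed, were 27532 to 28484 CPM in untreated Klf6fl/fl:Lyz2cre libraries against 34867 to 35585 in untreated Lyz2cre libraries, and 25841 to 26568 against 24110.3 to 24620.2 with TNF. Member by member 13 of these 16 were lower and 2 higher in Klf6fl/fl:Lyz2cre cells without TNF (9 and 3 scaled to totals). With TNF 11 were lower and 5 higher, or 8 and 6 scaled to totals, which is the scale of the sums. With TNF more of them were thus called lower than higher, while their sum was higher. Summed levels of 22 stromal markers, all listed, were 5249 to 5594 CPM against 313 to 375 without TNF and 491 to 583 against 94.8 to 123 with TNF. Without TNF 20 of the 20 stromal markers tested were higher in Klf6fl/fl:Lyz2cre cells, and with TNF 16 of 18 were. Summed levels of 10 endothelial markers, of which 5 of 6 tested were higher without TNF and 2 of 3 lower with TNF, were 216 to 227 CPM against 121 to 130.3 without TNF, and 144 to 147 against 176 to 203 with TNF, where Erg and Robo4 were at 0 or not listed in both genotypes. Monocyte markers, 12 in number, summed to 812 to 963 CPM against 896 to 952 without TNF and to 561 to 603 against 763 to 801 with TNF. Of these 12, 9 were higher and 2 lower without TNF at a median log2 effect of 1.39, though their sums overlapped, and 4 were higher and 4 lower with TNF (6 and 4 scaled to totals). Neutrophil markers, also 12, had 3 higher and 6 lower of 9 tested without TNF and 1 higher and 2 lower of 5 with TNF, and summed to 556 to 572 CPM against 648 to 704 without TNF and to 121 to 134 against 83.8 to 87.7 with TNF, where Ly6g, Retnlg and Cxcr2 were at 0 or not listed in both genotypes. Lymphocyte markers summed to at most 15.2 CPM and dendritic cell markers to at most 53.3 CPM in any library. The part of these cell types in the values below was not tested, and in bulk RNA fewer cells of a type and less RNA per cell cannot be told apart.

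The deposited scale and the total number of reads set the genotypes against each other differently, which bears on every value that follows. Klf6fl/fl:Lyz2cre libraries summed to 19.0 M normalized counts on average without TNF, against 20.8 M in Lyz2cre libraries, and to 16.4 M against 20.6 M with TNF. Scaling each library to its total instead raised the median log2 genotype effect of all genes by 0.13 without TNF and by 0.33 with TNF. It also moved the share of called genes that were higher in Klf6fl/fl:Lyz2cre cells to 68.0%, against 48.5% on the deposited scale, without TNF, and to 80.4%, against 46.2%, with TNF. Values on the deposited scale are therefore given first below and those scaled to totals beside them where the call or the direction turns.

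Transcripts of most of the 10 members were lower in Klf6fl/fl:Lyz2cre cells in both conditions on the deposited scale. Without TNF 9 of the 10 members were lower, none was higher and Nfkbib did not pass the test, and with TNF all 10 were lower (limma on log2 of the normalized count + 1, Benjamini-Hochberg adjusted p below 0.05 over all genes tested). The background was large: without TNF 56.9% of 12715 genes passed the test, 29.3% as lower and 27.6% as higher, and with TNF 57.3% of 11717 genes passed, 30.8% as lower and 26.5% as higher. The median log2 effect over the members was -0.37 without TNF and -0.50 with TNF, beside -0.01 over all genes tested in each condition. Scaled to totals the member medians were -0.24 and -0.17, beside 0.12 and 0.32 over all genes. Under that scaling 9 members were lower and Nfkbib was higher without TNF, where 18.9% of genes were called lower and 40.3% higher. With TNF 8 members were then lower, Nfkb2 and Rela passing in neither direction, where 14.6% of genes were called lower and 60.1% higher. All Klf6fl/fl:Lyz2cre libraries lay below all Lyz2cre libraries for 9 members without TNF, where that held for 32.2% of genes and the opposite order for 30.1%, and for 10 members with TNF, where the shares of genes were 33.3% and 29.9%. By CPM 8 members lay below and 1 (Nfkbib) above without TNF, beside 20.9% and 43.9% of genes, and 9 lay below and 1 (Rela) above with TNF, beside 15.3% and 61.2% of genes.

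**Figure D1:**
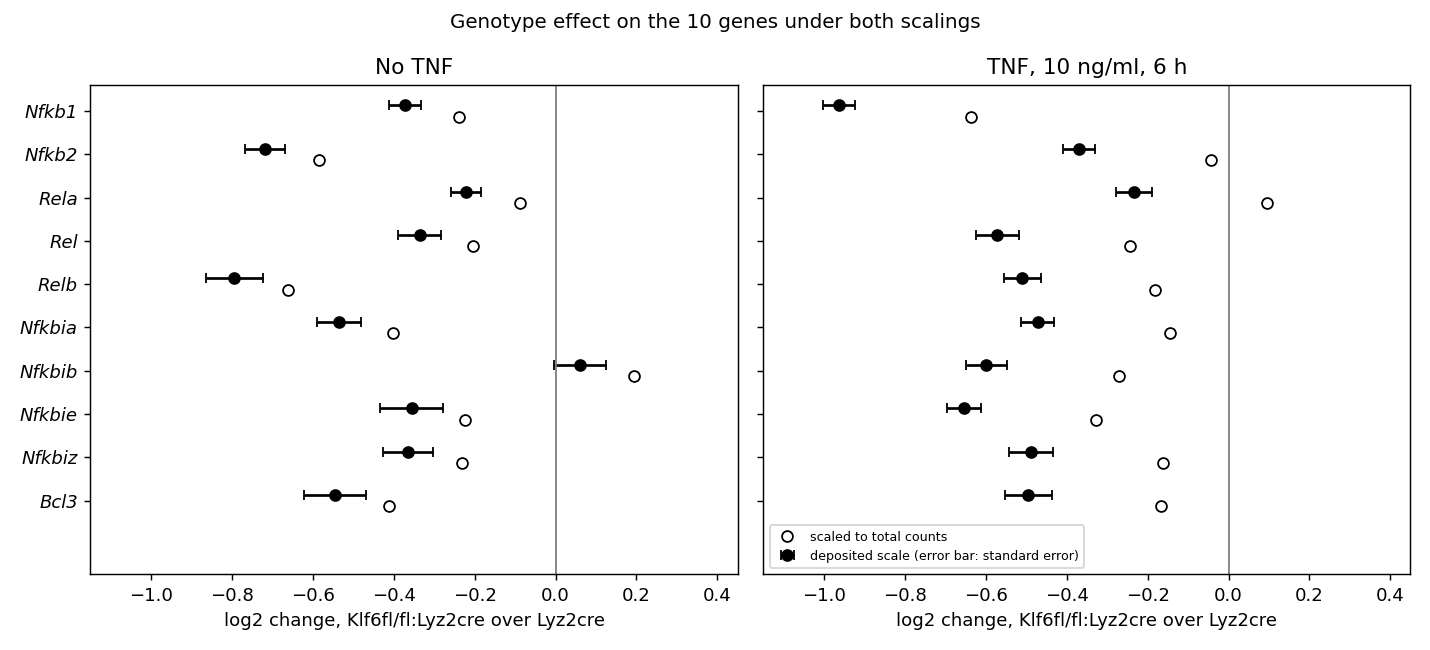
Log2 genotype effect (Klf6fl/fl:Lyz2cre over Lyz2cre, horizontal axis) of each of the 10 genes without TNF (left) and with TNF (right); filled points show the deposited scale with standard errors, and open points the same effect after scaling to total counts. All filled points but that of Nfkbib without TNF lie below 0, and scaling to totals moves every point to the right, past 0 for Rela with TNF.

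Among the precursors, Nfkb1, whose product p105 is processed to p50, stood apart with TNF. The gene lies on chromosome 3 (135584655 to 135691547, minus strand; GRCm38, as for all positions here). Without TNF, Nfkb1 had 2579, 2581 and 2488 normalized counts in Klf6fl/fl:Lyz2cre libraries, against 3398, 3194 and 3309.8 in Lyz2cre libraries. With TNF, Nfkb1 had 6121, 6063 and 6019.8 against 12116, 11549 and 11838. The genotypes did not overlap in either condition, and with TNF the lowest Lyz2cre library, at 11549, lay far above the highest Klf6fl/fl:Lyz2cre library, at 6121. Nfkb1 fell by 0.37 on the log2 scale without TNF (standard error 0.0398, limma adjusted p = 2.2e-07) and by 0.96 with TNF (standard error 0.0388, limma adjusted p = 2.9e-12), a 1.95-fold difference that is the largest among the 10 members with TNF. Scaled to totals the changes were -0.24 and -0.64, and both passed the test.

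Nfkb2, the gene of p100 and p52, went the other way across the conditions, with its larger genotype difference in untreated cells. It lies on chromosome 19 (46304320 to 46312385, plus strand). Without TNF, Nfkb2 had 1230.3, 1256 and 1362 normalized counts in Klf6fl/fl:Lyz2cre libraries, against 2059, 2063 and 2209 in Lyz2cre libraries. With TNF, Nfkb2 had 8853, 8787 and 8641 against 11555, 10977 and 11433. The genotypes were separate in both conditions. Nfkb2 fell by 0.72 without TNF (standard error 0.050, limma adjusted p = 6.4e-10) and by 0.37 with TNF (standard error 0.0390, limma adjusted p = 5.4e-07). Scaled to totals the change with TNF was -0.04 and no longer passed (limma, adjusted p = 0.32), while that without TNF was -0.59 and did. Exons of Nfkb2 overlap those of the opposite-strand gene Psd by 299 bases, and those of AC114539.1, which is not listed, by 531 bases. Psd averaged 115 ± 15.1 against 221 ± 19.2 normalized counts without TNF and 475 ± 19.9 against 601 ± 40.8 with TNF (SD, n = 3 each). Whether the counting used strand is not given, so reads in the shared bases cannot be assigned to either gene.

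The 3 subunits with a transactivation domain differed in how far they were lower. Rela, which encodes p65, the main activating subunit of the TNF response, lies on chromosome 19 (5637483 to 5648130, plus strand). Without TNF, Rela had 2918, 2889 and 2964 normalized counts in Klf6fl/fl:Lyz2cre libraries, against 3412, 3425 and 3394 in Lyz2cre libraries. With TNF, Rela had 5572, 5809 and 5763 against 6738, 6409 and 7017. It had the smallest changes of the called members, -0.22 without TNF (standard error 0.0366, limma adjusted p = 4.4e-05) and -0.23 with TNF (standard error 0.0439, limma adjusted p = 0.00027). Scaled to totals the effect without TNF was -0.09 (limma, adjusted p = 0.04), and the direction with TNF turned to 0.09 and did not pass (limma, adjusted p = 0.051). By CPM the 3 Klf6fl/fl:Lyz2cre libraries with TNF, at 339, 353 and 350.3, all lay above the Lyz2cre libraries, at 325, 316 and 336.

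Rel, which encodes c-Rel, a subunit of haematopoietic cells, lies on chromosome 11 (23736847 to 23770970, minus strand). Without TNF, Rel had 1265, 1166 and 1135 normalized counts in Klf6fl/fl:Lyz2cre libraries, against 1564, 1499 and 1438 in Lyz2cre libraries. With TNF, Rel had 1268, 1307 and 1312 against 1928, 1845 and 2010.0. No Klf6fl/fl:Lyz2cre library reached the level of a Lyz2cre library in either condition. The log2 change of Rel was -0.34 without TNF (standard error 0.0530, limma adjusted p = 2.7e-05) and -0.57 with TNF (standard error 0.0528, limma adjusted p = 1.1e-07).

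Relb, the subunit of the slower NIK branch, lies on chromosome 7 (19606217 to 19629438, minus strand) and had the largest untreated difference of the members. Without TNF, Relb had 536, 586 and 674 normalized counts in Klf6fl/fl:Lyz2cre libraries, against 1038, 1039.9 and 1025 in Lyz2cre libraries. With TNF, Relb had 3411, 3488 and 3327 against 4872, 4626 and 5068. The untreated Klf6fl/fl:Lyz2cre libraries varied more (599 ± 69.8) than the untreated Lyz2cre libraries (1034 ± 8.28; SD, n = 3 each), and all lay below them. Relb fell by 0.79 without TNF, a 1.73-fold difference (standard error 0.0713, limma adjusted p = 2.1e-08), and by 0.51 with TNF (standard error 0.0460, limma adjusted p = 8.1e-08). Scaled to totals the changes of Rel were -0.20 and -0.24 and those of Relb -0.66 and -0.18, and all 4 passed the test.

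The classical inhibitors retain dimers in the cytoplasm. Nfkbia, which encodes IkBa, the fast feedback inhibitor that NF-kB itself induces, lies on chromosome 12 (55489410 to 55492647, minus strand). Without TNF, Nfkbia had 1047, 1003 and 1157 normalized counts in Klf6fl/fl:Lyz2cre libraries, against 1569, 1549.6 and 1521 in Lyz2cre libraries. With TNF, Nfkbia had 9868, 9776 and 9655 against 13603, 12990.0 and 14066. No library of one genotype reached the other in either condition. Nfkbia fell by 0.54 without TNF (standard error 0.0545, limma adjusted p = 1.2e-07) and by 0.47 with TNF (standard error 0.0406, limma adjusted p = 4.5e-08), and scaled to totals by 0.40 and 0.14, both past the test.

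Nfkbib, the gene of IkBb, was the exception without TNF. It lies on chromosome 7 (28758251 to 28767512, minus strand). Without TNF, Nfkbib had 654, 681 and 675 normalized counts in Klf6fl/fl:Lyz2cre libraries, against 629, 614 and 686 in Lyz2cre libraries. These groups overlapped, and the log2 difference of 0.06 did not pass (standard error 0.0635, limma adjusted p = 0.44), while scaled to totals it was 0.19 and passed as higher (limma, adjusted p = 0.016). With TNF, Nfkbib had 1627, 1680.2 and 1655 against 2586, 2372 and 2563. There the genotypes were separate and Nfkbib fell by 0.60 (standard error 0.0507, limma adjusted p = 3.8e-08), or by 0.27 scaled to totals. Its exons overlap those of the opposite-strand gene Sirt2 by 42 bases and those of Ccer2, which is not listed, by 314 bases. Sirt2 averaged 2165 ± 59.7 against 3921 ± 121 normalized counts without TNF and 1537 ± 42.7 against 2039 ± 65.0 with TNF (SD, n = 3 each).

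Nfkbie, the gene of IkBe, a slower feedback inhibitor, lies on chromosome 17 (45555703 to 45563169, plus strand). Without TNF, Nfkbie had 379, 411 and 425 normalized counts in Klf6fl/fl:Lyz2cre libraries, against 509.9, 489 and 558 in Lyz2cre libraries. With TNF, Nfkbie had 5769, 5689 and 5944 against 9098, 8800.0 and 9501. Both conditions separated the genotypes. Nfkbie fell by 0.36 without TNF (standard error 0.0773, limma adjusted p = 0.00068) and by 0.65 with TNF (standard error 0.0422, limma adjusted p = 1.2e-09), the second largest decrease with TNF after Nfkb1, and scaled to totals by 0.22 and 0.33, both past the test.

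The nuclear members Nfkbiz and Bcl3 bind p50 or p52 dimers on DNA and can activate or repress genes. Nfkbiz, the gene of IkBz, lies on chromosome 16 (55811375 to 55838899, minus strand). Without TNF, Nfkbiz had 1139, 1109 and 1303 normalized counts in Klf6fl/fl:Lyz2cre libraries, against 1503, 1429.8 and 1636 in Lyz2cre libraries. With TNF, Nfkbiz had 1187, 1242 and 1259 against 1759, 1644 and 1776. On the deposited scale the genotypes were separate, while by CPM without TNF the highest Klf6fl/fl:Lyz2cre library, at 68.6, lay above the lowest Lyz2cre library, at 68.3. The log2 change of Nfkbiz was -0.36 without TNF (standard error 0.0629, limma adjusted p = 7e-05) and -0.49 with TNF (standard error 0.0547, limma adjusted p = 1.1e-06).

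Bcl3 lies on chromosome 7 (19808462 to 19822770, minus strand). Without TNF, Bcl3 had 535, 528 and 649.5 normalized counts in Klf6fl/fl:Lyz2cre libraries, against 867, 775 and 851 in Lyz2cre libraries. With TNF, Bcl3 had 1761, 1786 and 1834 against 2544, 2321 and 2736. The genotypes were separate in both conditions. The log2 change of Bcl3 was -0.55 without TNF (standard error 0.0775, limma adjusted p = 7.9e-06) and -0.50 with TNF (standard error 0.0580, limma adjusted p = 1.9e-06). Scaled to totals the changes of Nfkbiz were -0.23 and -0.16 and those of Bcl3 -0.41 and -0.17, all past the test. The antisense transcript Gm16175 shares 161 exon bases with Bcl3 and averaged at most 9.23 normalized counts in a group.

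The genotype effect itself differed between the conditions for 6 of the 10 members, 4 with a more negative and 2 with a less negative effect with TNF, where 49.2% of 12975 genes passed this test, 25% with a lower and 24.2% with a higher effect. The test was the limma contrast of the genotype effect with TNF minus that without TNF over all 12 libraries, in which only differences within a table enter. The effect was more negative with TNF for Nfkbib (-0.66, standard error 0.0758, limma adjusted p = 5.2e-07) and Nfkb1 (-0.59, standard error 0.0510, limma adjusted p = 8.9e-09). It was also more negative for Nfkbie (-0.30, standard error 0.0768, limma adjusted p = 0.0032) and Rel (-0.24, standard error 0.0739, limma adjusted p = 0.013), and both calls were lost when libraries were scaled to totals (-0.10 with limma adjusted p = 0.26 for Nfkbie, -0.04 with limma adjusted p = 0.65 for Rel). It was less negative with TNF for Nfkb2 (0.35, standard error 0.0609, limma adjusted p = 8.6e-05) and Relb (0.28, standard error 0.0880, limma adjusted p = 0.011). For Nfkbia, Bcl3, Rela and Nfkbiz the differences were 0.06, 0.05, -0.01 and -0.12 and did not pass. Scaled to totals, where the median of all genes moved up by 0.19, the differences of Rela (0.18), Nfkbia (0.26) and Bcl3 (0.24) passed as higher, where 16.9% of genes passed as lower and 37.9% as higher. Nfkb1 and Nfkbib as lower, and Nfkb2 and Relb as higher, were called on both scales, and Relb was lost without the mean-variance trend (limma, adjusted p = 0.05).

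Ratios of reads between members within a library do not depend on any scaling, and they showed the same contrast between the precursor genes. These ratios were picked after the values were seen and carry no test. With TNF, reads of Nfkb2 over reads of Nfkb1 were 1.45, 1.45 and 1.44 in Klf6fl/fl:Lyz2cre libraries, against 0.954, 0.951 and 0.966 in Lyz2cre libraries. Without TNF the same ratio was 0.477, 0.487 and 0.547 against 0.606, 0.646 and 0.668. The genotypes were separate in both conditions and in opposite order, with Klf6fl/fl:Lyz2cre above Lyz2cre with TNF and below it without.

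The ratio of Relb to Rela was lower in Klf6fl/fl:Lyz2cre libraries in both conditions, at 0.205 ± 0.0219 against 0.303 ± 0.00123 without TNF and, with TNF, 0.597 ± 0.0177 against 0.722 ± 0.000587 (SD, n = 3 each). The ratio of Nfkbia to Rela, inhibitor to main activating subunit, was 0.365 ± 0.0223 against 0.454 ± 0.00589 without TNF and 1.71 ± 0.0531 against 2.02 ± 0.0113 with TNF. Nfkbib over Rela turned its order, at 0.229 ± 0.00601 against 0.189 ± 0.0120 without TNF and, with TNF, 0.289 ± 0.00239 against 0.373 ± 0.00965. Rel over Rela overlapped between the genotypes without TNF (0.383 to 0.434 against 0.424 to 0.458) and did not with TNF (0.225 to 0.228 against 0.286 to 0.288). Nfkbie over Nfkbia likewise overlapped without TNF (0.362 to 0.410 against 0.316 to 0.367) and was lower in Klf6fl/fl:Lyz2cre libraries with TNF (0.582 to 0.616 against 0.669 to 0.677).

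**Figure D2:**
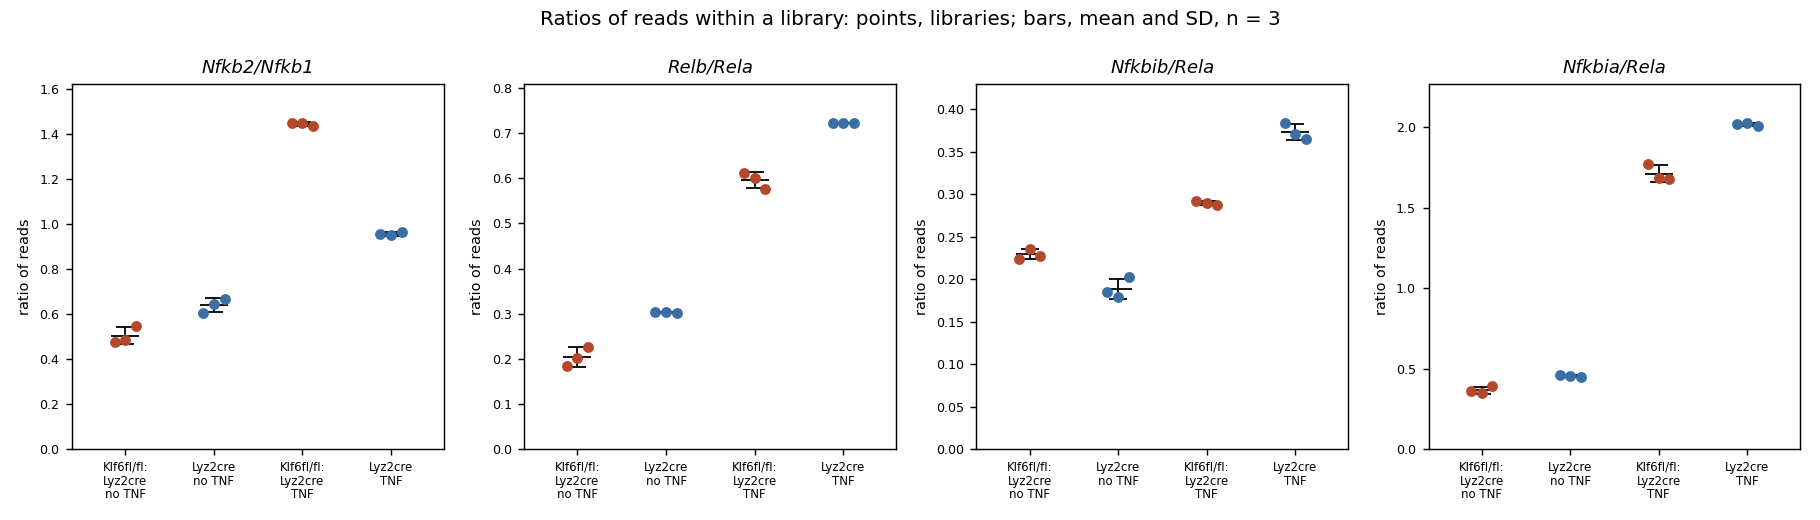
Ratio of reads between pairs of members within each library (vertical axis, no unit), in the 4 groups; points are libraries, and bars the mean with its SD (n = 3). The ratio of Nfkb2 to Nfkb1 lies between 1.44 and 1.45 in Klf6fl/fl:Lyz2cre libraries with TNF, above the 0.951 to 0.966 of Lyz2cre libraries, and in the opposite order without TNF.

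All 10 members had a higher CPM level with TNF than without it in both genotypes. Over all genes the median ratio of CPM with TNF to CPM without was 0.938 in Klf6fl/fl:Lyz2cre and 0.789 in Lyz2cre cells. The lowest ratios of the members were those of Nfkbiz and Rel. That of Nfkbiz lay above 77.4% of genes in Klf6fl/fl:Lyz2cre and 75.0% in Lyz2cre cells, and that of Rel above 81.0% and 81.2%. The tables were normalized separately, so the change with TNF is described in CPM and was not tested. Nfkbie stood at 353 ± 7.81 CPM with TNF and 21.4 ± 1.28 CPM without in Klf6fl/fl:Lyz2cre cells, and at 442 ± 10.8 CPM with TNF and 25.0 ± 1.79 CPM without in Lyz2cre cells (SD, n = 3 each). Nfkbia stood at 594 ± 6.77 CPM with TNF and 56.4 ± 4.04 CPM without in Klf6fl/fl:Lyz2cre cells, and at 657 ± 16.1 CPM with TNF and 74.4 ± 1.28 CPM without in Lyz2cre cells. As ratios these feedback inhibitors had the widest span between conditions, and Rel and Nfkbiz the narrowest. Rel stood at 78.8 ± 1.42 CPM with TNF and 62.7 ± 3.47 CPM without in Klf6fl/fl:Lyz2cre cells, and at 93.4 ± 2.61 CPM with TNF and 72.2 ± 3.15 CPM without in Lyz2cre cells. Nfkbiz stood at 74.8 ± 2.25 CPM with TNF and 62.5 ± 5.38 CPM without in Klf6fl/fl:Lyz2cre cells, and at 83.6 ± 2.15 CPM with TNF and 73.3 ± 5.34 CPM without in Lyz2cre cells.

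**Figure D3:**
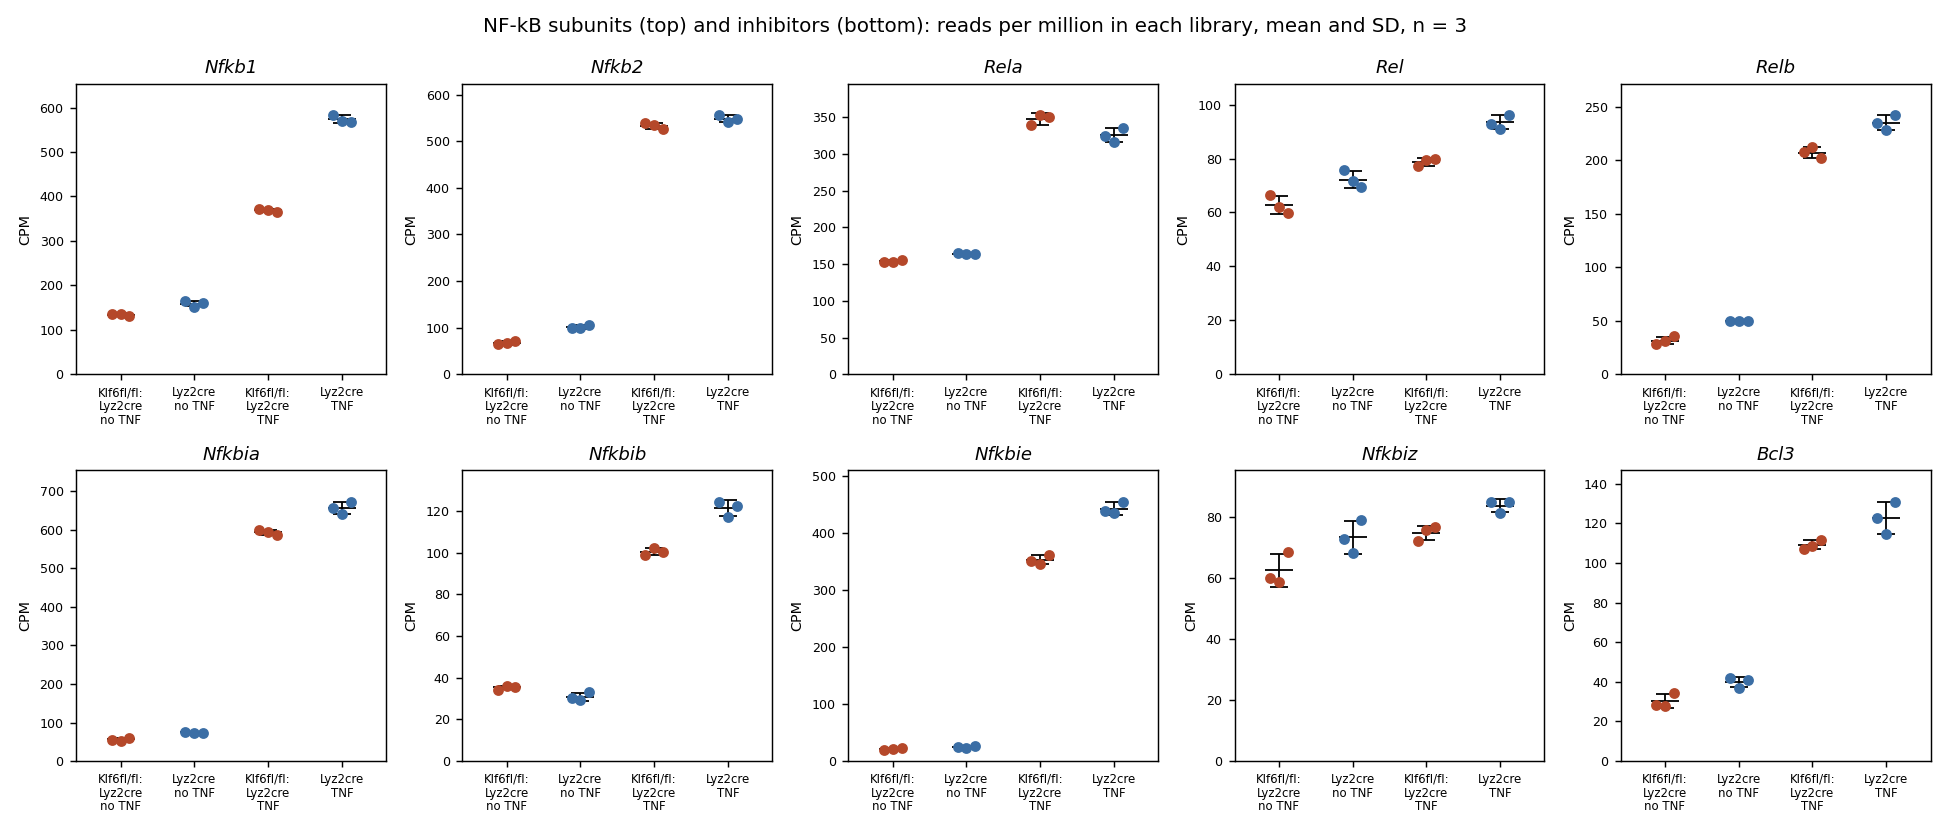
CPM (vertical axes, each from 0) of the 5 subunit genes (top) and 5 inhibitor genes (bottom) in the 4 groups; points are libraries, and bars the mean with its SD (n = 3). Nfkb1 with TNF lies at 369 CPM in Klf6fl/fl:Lyz2cre and 573 CPM in Lyz2cre cells on average, whereas Rela with TNF is slightly higher in Klf6fl/fl:Lyz2cre cells by CPM (348 against 326), though lower on the deposited scale.

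Expressed as the ratio of mean CPM with TNF to mean CPM without, 8 of 10 members were above 2 in Klf6fl/fl:Lyz2cre cells, where 5.61% of 12966 genes were, and 7 of 10 in Lyz2cre cells, where 9.46% of 12894 genes were. The ratio for Nfkbie was 16.5 in Klf6fl/fl:Lyz2cre cells and 17.7 in Lyz2cre cells, with ranges between single libraries of 15.4 to 18.1 and 16.1 to 19.5 that overlapped. Nfkb1 had 2.74 (2.67 to 2.84) in Klf6fl/fl:Lyz2cre cells and 3.61 (3.45 to 3.83) in Lyz2cre cells, and Nfkbib had 2.85 (2.74 to 2.97) and 3.92 (3.54 to 4.25), so that both had the smaller ratio in Klf6fl/fl:Lyz2cre cells. Nfkb2 had 7.87 (7.32 to 8.32) in Klf6fl/fl:Lyz2cre cells and 5.40 (5.08 to 5.65) in Lyz2cre cells, and Relb had 6.56 (5.70 to 7.52) and 4.73 (4.55 to 4.91), so that both had the larger ratio there. The remaining ratios in Klf6fl/fl:Lyz2cre and Lyz2cre cells were 10.5 and 8.82 for Nfkbia, 3.62 and 3.07 for Bcl3, 2.25 and 1.98 for Rela, 1.26 and 1.29 for Rel, and 1.20 and 1.14 for Nfkbiz. The median ratio of all genes was 0.938 in Klf6fl/fl:Lyz2cre and 0.789 in Lyz2cre cells. With TMM scaling over the 12 libraries the order of the genotypes turned for Rela (2.39 and 2.48) and Nfkbiz (1.27 and 1.43). The gap closed for Bcl3 (3.84 in both) and nearly so for Nfkbia (11.2 and 11.0). It narrowed for Nfkb2 (8.35 and 6.75) and Relb (6.96 and 5.91). It widened for Nfkbie (17.5 and 22.2), Rel (1.33 and 1.62), Nfkb1 (2.91 and 4.51) and Nfkbib (3.02 and 4.91). Klf6 had CPM ratios of 0.675 in Klf6fl/fl:Lyz2cre cells and 0.741 in Lyz2cre cells, where the median of all genes was 0.789, and TMM ratios of 0.717 and 0.927.

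**Figure D4:**
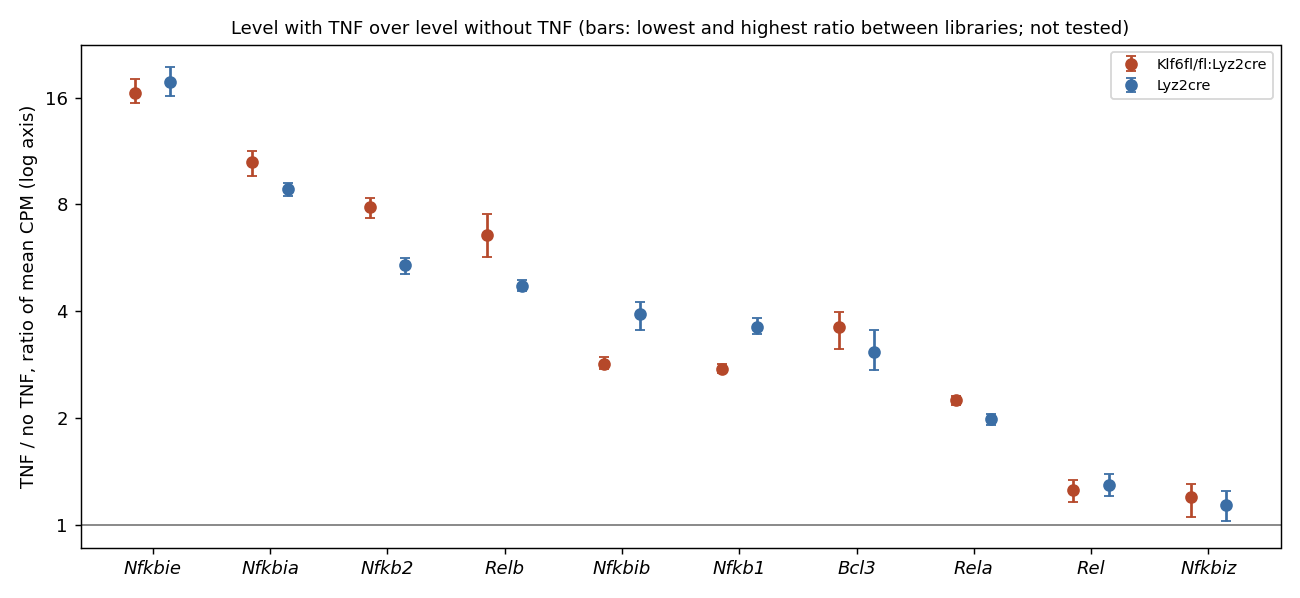
Ratio of mean CPM with TNF to mean CPM without TNF (vertical log axis) for each member in Klf6fl/fl:Lyz2cre and Lyz2cre cells, with bars from the lowest to the highest ratio between single libraries. Without overlap of the bars, Nfkbia, Nfkb2, Relb and Rela have the larger ratio in Klf6fl/fl:Lyz2cre cells, and Nfkb1 and Nfkbib the smaller; under TMM scaling the order for Rela turns (2.39 and 2.48) and Nfkbia is nearly level (11.2 and 11.0).

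Levels were compared between genes as CPM per kilobase of the longest coding transcript (GENCODE vM21). Without TNF, Rela was the highest member in Klf6fl/fl:Lyz2cre cells at 56.8, followed by Nfkbia at 35.7 and Nfkb1 at 32.7. The next 5 (Nfkb2 at 17.6, Nfkbib, Bcl3, Nfkbiz and Relb at 14.3) each overlapped their neighbour in the order, and so did the lowest pair, Nfkbie at 8.78 and Rel at 8.40. In untreated Lyz2cre cells the order began with Rela at 60.4, Nfkbia at 47.2, Nfkb1 at 38.6 and Nfkb2 at 26.4. There Relb at 22.5 was the fifth and overlapped only Bcl3 at 21.6, Nfkbiz had 17.8, Nfkbib 15.01, and Nfkbie at 10.3 overlapped Rel at 9.67.

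With TNF the inhibitor Nfkbia came before every subunit. In Klf6fl/fl:Lyz2cre cells the CPM per kilobase was 376 for Nfkbia, 145 for Nfkbie, 139 for Nfkb2, 128 for Rela, 93.8 for Relb and 89.6 for Nfkb1. Below these were Bcl3 at 58.96, Nfkbib at 48.8, Nfkbiz at 18.2 and Rel at 10.6, and no neighbours in this group overlapped. In Lyz2cre cells with TNF the values were 416 for Nfkbia, 182 for Nfkbie, 143 for Nfkb2 and 139 for Nfkb1, of which the last pair overlapped. Rela followed at 119.9, Relb at 106, Bcl3 at 66.3, Nfkbib at 58.9, Nfkbiz at 20.3 and Rel at 12.5. Nfkb1 thus ranked below Relb in Klf6fl/fl:Lyz2cre cells and above Rela in Lyz2cre cells. Its rank rests on the length used, since all annotated exons of Nfkb1 span 12.1 kb against 4.12 kb for the transcript. When all annotated exons were used for every gene, Nfkb1 took rank 7 without TNF and rank 8 with TNF in both genotypes. With that length 22 of the 40 ranks over the 4 groups moved. Among them, Relb went from rank 5 to rank 8 in untreated Lyz2cre cells. Nfkbie and Nfkb2 exchanged ranks 2 and 3 in Klf6fl/fl:Lyz2cre cells with TNF.

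Upstream of NF-kB, most of the 16 genes of the IkB kinase and upstream kinase list passed the test without a common direction. The list also holds genes that encode no kinase, such as Azi2 and Ikbkg. For this and the following lists, 29.3% of all genes were called lower and 27.6% higher without TNF, and 30.8% and 26.5% with TNF. Scaled to totals these shares were 18.9% and 40.3% without TNF, and 14.6% and 60.1% with TNF. Without TNF 10 were lower and 4 higher in Klf6fl/fl:Lyz2cre cells, with a median log2 effect of -0.16 (-0.03 scaled to totals, with 7 lower and 5 higher). With TNF 8 were lower and 3 higher at a median of -0.13, and this turned to 4 lower and 9 higher at a median of 0.20 when scaled to totals. Ikbke, the gene of the IkB kinase relative IKK-epsilon, had 2558 ± 229 against 4517 ± 226 normalized counts without TNF (log2 -0.82, limma adjusted p = 2.9e-10) and 7474 ± 218 against 10542 ± 712 with TNF (log2 -0.49, limma adjusted p = 2.3e-07; SD, n = 3 each). Azi2, an adaptor of the kinase TBK1, was higher without TNF at 1752 ± 20.7 against 1602 ± 27.5 (log2 0.13, limma adjusted p = 0.015) and had 1812 ± 34.2 against 4058 ± 40.3 with TNF (log2 -1.16, limma adjusted p = 1.4e-12). Map3k14, which encodes NIK, the kinase of the branch that processes p100, was lower without TNF at 711 ± 8.98 against 1003 ± 46.8, and higher with TNF at 574 ± 25.5 against 424 ± 48.7 (log2 0.44, limma adjusted p = 0.00056). Its genotype effect differed between the conditions by 0.94 (standard error 0.107, limma adjusted p = 4.9e-07). The 3 genes of the core kinase complex fall outside the rule for named genes and were named after their values were seen. Ikbkg, the regulatory subunit NEMO, was higher at 2018 ± 61.3 against 1628 ± 17.3 without TNF and, with TNF, 4275 ± 101 against 3145 ± 224, and Ikbkb, the main catalytic subunit, was lower on the deposited scale at 2475 ± 7.30 against 2780.4 ± 35.3 and 2656 ± 132 against 3172 ± 65.6, while scaled to totals its log2 effects were -0.04 and 0.07 and did not pass. Chuk, the other catalytic subunit, was higher without TNF at 1306 ± 40.2 against 1109 ± 10.5 and did not pass with TNF, at 1551 ± 119 against 1616 ± 123, but passed as higher there when scaled to totals (log2 0.27, limma adjusted p = 0.0024).

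Of 18 adaptor and ubiquitin ligase genes, 16 were tested in each condition, Skp1 and Ube2v1 not being among the genes tested. Without TNF 2 were lower and 2 higher at a median log2 effect of 0.01, or 2 lower and 7 higher at 0.14 when scaled to totals. With TNF 12 were lower and 1 higher at a median of -0.35, or 7 lower and 5 higher at -0.02 when scaled to totals. Rnf31, the catalytic subunit of the linear ubiquitin ligase, had 1032 ± 61.8 against 1061 ± 36.7 normalized counts without TNF and 1396 ± 128 against 4483 ± 499.7 with TNF (log2 -1.68, limma adjusted p = 1.3e-11; SD, n = 3 each). Birc2, a ubiquitin ligase of the TNF receptor complex, had 521 ± 12.5 against 516 ± 37.2 without TNF and 947 ± 30.6 against 1695 ± 89.5 with TNF (log2 -0.84, limma adjusted p = 3.1e-09). Traf2, its partner in that complex, had 515 ± 18.0 against 550.3 ± 9.47 without TNF and 1179 ± 81.1 against 1885 ± 46.0 with TNF. The genotype effects of Rnf31, Birc2 and Traf2 differed between the conditions by -1.64, -0.86 and -0.58 (limma, adjusted p = 9.1e-11, 1.3e-07 and 6.8e-06). Birc3, the closest relative of Birc2, went the other way, with the largest untreated change of the list. It had 751 ± 52.6 against 1777 ± 56.0 without TNF (log2 -1.24, limma adjusted p = 1.5e-12) and a decrease of 0.70 on the log2 scale with TNF, a difference between the effects of 0.55 (limma, adjusted p = 9.6e-07).

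Of 24 negative regulators, 8 were lower and 7 higher without TNF at a median log2 effect of -0.05, or 4 lower and 9 higher at 0.08 when scaled to totals. With TNF 14 were lower and 3 higher at a median of -0.30, which became 10 lower and 10 higher at 0.03 when scaled to totals. Usp18, a protease that removes the ubiquitin-like ISG15, was higher without TNF at 514 ± 13.1 against 402 ± 46.5 normalized counts (log2 0.36, limma adjusted p = 0.0012). With TNF it had 861 ± 84.3 against 9021 ± 1246 normalized counts with TNF (log2 -3.38, limma adjusted p = 8.1e-15), and Peli1, a ubiquitin ligase, had 828 ± 5.05 against 2239 ± 226 (log2 -1.43, limma adjusted p = 2.2e-11; SD, n = 3 each). Socs1, a suppressor of cytokine signalling, was higher without TNF at 107 ± 13.8 against 34.7 ± 4.59 and lower with TNF at 87.8 ± 13.97 against 489 ± 78.1, a difference of -4.06 between the genotype effects (limma, adjusted p = 3.6e-11). Nfkbid, which encodes a further nuclear IkB protein, had 324 ± 23.3 against 462 ± 12.4 without TNF (log2 -0.51, limma adjusted p = 2.6e-05). Tnfaip3, the gene of the ubiquitin-editing feedback inhibitor A20, was also named after its values were seen. It had 1088 ± 57.3 against 1212 ± 49.8 without TNF (log2 -0.16, limma adjusted p = 0.021, lost at -0.02 when scaled to totals) and 7059 ± 163 against 11948 ± 499 with TNF (log2 -0.76, limma adjusted p = 1.8e-10).

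Downstream, NF-kB target genes were divided without TNF and mostly lower with it. Of 26 tested without TNF, 11 were higher and 9 lower in Klf6fl/fl:Lyz2cre cells at a median log2 effect of 0.05, or 13 higher and 8 lower when scaled to totals. With TNF 22 of 29 were lower and 5 higher at a median of -0.89, where 30.8% of all genes were lower and 26.5% higher. Scaled to totals 19 were lower and 6 higher at -0.57, where 14.6% of all genes were lower and 60.1% higher. Csf1, the gene of macrophage colony-stimulating factor, was higher without TNF at 3365 ± 186 against 644 ± 49.2 normalized counts (log2 2.39, limma adjusted p = 2.9e-16), as was the monocyte chemokine gene Ccl2 at 397 ± 68.4 against 99.0 ± 20.8 (log2 2.00, limma adjusted p = 1.6e-09; SD, n = 3 each). Ptgs2, the gene of the inducible cyclooxygenase, turned between the conditions, at 90.2 ± 30.9 against 19.4 ± 7.08 without TNF and, with TNF, 324 ± 20.3 against 714 ± 20.2 (difference of effects -3.32, limma adjusted p = 3.3e-08). The summed stromal markers given above were likewise higher in untreated Klf6fl/fl:Lyz2cre libraries, and their part in these values was not tested. The 4 largest changes of the list with TNF were decreases of Vcam1 (22.2-fold), Ccl5 (8.16-fold), Cd40 (6.54-fold) and Nos2 (6.52-fold).

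Among 14 transcription cofactor genes the direction depended on the scaling. On the deposited scale 6 were lower and 3 higher without TNF, and 4 were lower and 1 higher with TNF. Scaled to totals 3 were lower and 4 higher without TNF. With TNF 1 was then lower and 10 were higher, where 60.1% of all genes were higher. Kat2b, a histone acetyltransferase gene, was lower with TNF at 515 ± 14.5 against 1670.5 ± 139.9 normalized counts (log2 -1.69, limma adjusted p = 3.3e-12; SD, n = 3 each).

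**Figure D5:**
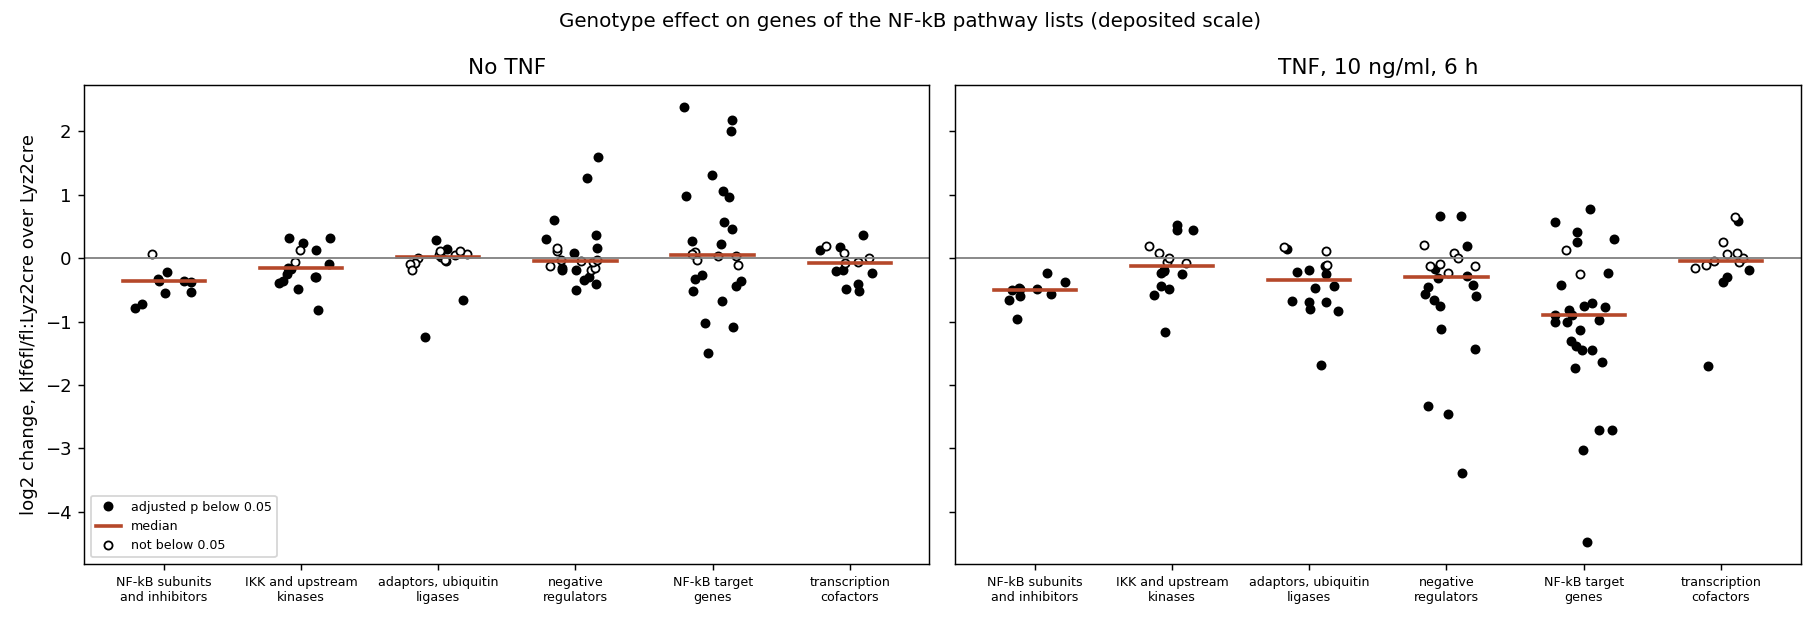
Log2 genotype effect (vertical axis, Klf6fl/fl:Lyz2cre over Lyz2cre, deposited scale) of the members and of the genes of 5 NF-kB pathway lists without TNF (left) and with TNF (right); filled points passed the limma test, open points did not, and lines are medians. The median of the target genes lies at 0.05 without TNF and at -0.89 with TNF. The medians of the kinase list, which also holds adaptors, and of the negative regulators and cofactors with TNF turn positive when scaled to totals.

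Likeness of pattern was measured as Pearson's r of log2(CPM + 1) over the 12 libraries, among 10576 named genes tested in both conditions. The 12 points fall into the 4 groups and share the difference between the TNF conditions, so r is high for many genes and is given as a description. The genes most like Nfkb1 were Slc7a8, Gch1 and Nrp2, and those most like Nfkbib were Clcn7, Tnf and Nod2, with r of 0.997 to 0.999. Nfkb2, Relb and Bcl3 shared Csf2rb and Pde4b among their nearest 3 genes (r of 0.995 to 0.999), and the third was Pstpip2 for Nfkb2 and Tlr2 for Relb and Bcl3. Nfkbia and Nfkbie shared Tnfaip2, beside Traf1 and Slc25a37 for Nfkbia and H2-M2 and Gpr132 for Nfkbie (r of 0.998 to 0.999). Rela was nearest to Nadk, Camta2 and Mfsd7a (r of 0.998 to 0.999). Rel was nearest to Stxbp3, Itga4 and Prkcd at r of 0.969 to 0.975, and Nfkbiz to Arpc1b, Setd1b and Slc39a1 at r of 0.924 to 0.933. Among the members, Nfkb2 and Relb had r of 0.998, and Nfkbia and Nfkbie also 0.998, while Nfkbiz had at most 0.834, with Rel.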

How the data were processed

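Macrophage RNA was extracted with a Roche High Pure kit, and stranded libraries were prepared after removal of ribosomal RNA (TruSeq Stranded, Ribo-Zero Gold), per the labels' protocols. Cufflinks and the builds GRCm39 and mm10 are named without a version or role, per the submitters' processing notes. For the aligner, the counting tool and the use of strand, nothing is stated in the labels or headers. The authors deposited 1 table per condition of normalized signal per gene and library, whose unit is not stated. Dividing the deposited signal by 1 step per library gave whole reads for 100% of values (tolerance 0.001 reads, largest deviation 5.3e-05), and the inverse steps equalled median-of-ratios size factors computed within each table. The values are therefore read counts divided by a size factor, not FPKM, and the tables were scaled separately. The plan had left the unit open.

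Symbols matched 22867 of the 22896 and 21411 of the 21437 identifiers, and positions came from GENCODE vM21 (GRCm38). The genotypes of a table were compared by limma, with the trend option, on log2(value + 1). Genes needed 1 CPM or more in 3 or more libraries. There was Benjamini-Hochberg adjustment with calls at an adjusted p below 0.05. The log2(value + 1) scale understates changes of low genes. Alternatives were edgeR quasi-likelihood with TMM and DESeq2 on the recovered reads, other filters and pseudocounts, scaling to total counts, no trend, the replicate number as a block and each library left out. On the recovered reads edgeR called 7219, 6707 and 6381 genes for the effect without TNF, the effect with TNF and their difference, beside 7230, 6711 and 6382 by limma. The fits were tested on simulated data. Named genes were the members, Klf6 and Lyz2, up to 4 called genes per list with the largest changes, and the 3 most alike genes of each member, with the exceptions named in the text. Of the list genes under this rule the text gives a selection made after their values were seen. Some results are not reported here. The members and lists were chosen with earlier results of these data known. Lengths from the longest coding transcript were chosen after the data were seen. Models ran in R 4.3.3 with DESeq2 1.42.0, edgeR 4.0.16 and limma 3.58.1. Tables and figures were made in Python 3.11.15 with matplotlib 3.10.9, pandas 2.3.3 and numpy 2.4.6.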

Additional observations from a re-analysis of the deposited data

Results flagged for a closer look

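A test of the difference between the genotype effect with TNF and that without TNF passed for 6 members (limma over 12 libraries, adjusted p below 0.05), where 49.2% of all genes tested passed. The difference was -0.66 for Nfkbib, -0.59 for Nfkb1, -0.30 for Nfkbie and -0.24 for Rel, and 0.35 for Nfkb2 and 0.28 for Relb. Those of Nfkbie and Rel did not pass when libraries were scaled to totals.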

How the results depend on the processing

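Effects of genotype on the 10 members kept their direction and their side of the threshold in 149 of 150 alternatives without TNF and in 148 of 150 with TNF, and their difference between conditions in 199 of 210. Scaling to total counts made all 3 exceptions of the first kind: Nfkbib without TNF became higher at 0.19, Nfkb2 with TNF was lost at -0.04, and Rela with TNF reversed to 0.094. For the difference between conditions that scaling lost Rel (-0.04) and Nfkbie (-0.10), brought in Nfkbia (0.26) and Bcl3 (0.24), and reversed Rela (0.18, now past the test) and Nfkbiz (0.07, not past it). Relb was lost without the mean-variance trend (limma, adjusted p = 0.05). The uncalled differences of Rela and Bcl3 changed sign when single libraries were left out, ranging from -0.045 to 0.02 for Rela (above 0 without Klf6fl/fl:Lyz2cre TNF replicate 1, 0.007, or Lyz2cre TNF replicate 3) and from -0.012 to 0.15 for Bcl3 (below 0 without untreated Klf6fl/fl:Lyz2cre replicate 2, -0.0026, or Lyz2cre TNF replicate 2). These causes were not tested beyond the shift of the median of all genes given above. Leaving out each library gave 6106 to 6823 genes without TNF, 5713 to 6564 with TNF and 5792 to 6391 for the difference. DESeq2 called 6694, 6268 and 6258. Replicate numbers recur between the groups, and whether same-numbered libraries belong together is not given. Without TNF the deviations of same-numbered libraries of the 2 genotypes correlated at 0.00749 to 0.111, against -0.145 to 0.0508 for unlike numbers. With TNF they correlated at -0.0286 to 0.0147, against -0.0127 to 0.0413 for unlike numbers. Most like their own number were 4 of 6 libraries without TNF and 2 of 6 with TNF. With the replicate number as a block 7284, 6473 and 6284 genes were called, and no member's call changed. The share of called genes with a higher effect was 69.2% scaled to totals, against 49.2%, for the difference between conditions. With TMM over the 12 libraries the TNF ratios ran from 1.27 to 17.5 in Klf6fl/fl:Lyz2cre and from 1.43 to 22.2 in Lyz2cre cells. Using all annotated exons as the length moved 22 of 40 ranks in the order of levels. Every member had at least 404 reads in each library, and the effect of depth was not varied.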
